A study of Mus musculus with 2 samples.

Results

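The genes of the TGF-beta receptors, the SMAD proteins and the SMAD corepressors were searched for FLAG-HLF peaks in mouse blood stem and progenitor cells. The 10 genes were Tgfbr1, Tgfbr2, Tgfbr3, Smad2, Smad3, Smad4, Smad6, Smad7, Ski and Skil. A peak was assigned to a gene when its centre lay inside the gene or within 100 kb of either end. By this rule 9 of the 3153 peaks in the list, or 0.285%, were assigned to the pathway genes. They lay at 7 of the 10 genes. Of all coding genes 36.3% had such a peak, and of coding genes in the length range of the 10 it was 40.7%. HLF, or hepatic leukemia factor, binds DNA as a PAR bZIP protein. The design text gives the question as where HLF binds across the genome of multipotent progenitors.

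The starting cells were wild-type Lin-Sca-1+c-Kit+ (LSK) cells, 80000 per infection. They received either a pMX retrovirus carrying FLAG-tagged Hlf followed by IRES-GFP, or the pMX-GFP control virus, so the profiled HLF was a tagged, virus-driven copy added to cells with their own Hlf gene. Both arms were kept for 5 days with SCF (50 ng/ml), IL-7 (10 ng/ml), Flt3 ligand (10 ng/ml) and IL-3 (5 ng/ml), and both were precipitated with the same anti-FLAG antibody. Each arm was 1 library, and the data set used here is the list of FLAG-HLF peaks. The GFP control was not analysed here, so no background of the antibody is set beside the counts. The list holds positions only. The depth behind a peak is unknown, no peak can be ranked by strength, and no value has a replicate check. Neither RNA nor surface markers were measured, so the state of the cells after culture could not be checked.

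TGF-beta acts through paired serine/threonine kinase receptors. The ligand binds TGFBR2, which recruits and phosphorylates TGFBR1, and TGFBR1 in turn phosphorylates SMAD2 and SMAD3. These join SMAD4 and enter the nucleus to regulate genes, while SMAD6 and SMAD7 block the receptors and SKI and SKIL (SnoN) restrain the SMAD complex on DNA. In blood, TGF-beta is known as a signal that keeps stem cells quiescent.

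Sequence was at hand for 1 of the 9 peaks. The peak 22.7 kb upstream of Smad3 (chr9:63780541-63780940, mm10) covers the start of Gm35941, a long noncoding RNA gene, whose start site at base 63780751 is 11 bases from the peak centre. The RefSeq promoter of Gm35941 (GRCm38.p6) overlaps the peak over 239 bases (chr9:63780702-63780940, minus strand), and this stretch is shown because it is the HLF-precipitated DNA nearest to Smad3. Capitals mark TTACATAA, the reverse complement of TTATGTAA, a form of the PAR bZIP site that differs by a single base from the palindrome TTACGTAA.
Gm35941 start, under the peak: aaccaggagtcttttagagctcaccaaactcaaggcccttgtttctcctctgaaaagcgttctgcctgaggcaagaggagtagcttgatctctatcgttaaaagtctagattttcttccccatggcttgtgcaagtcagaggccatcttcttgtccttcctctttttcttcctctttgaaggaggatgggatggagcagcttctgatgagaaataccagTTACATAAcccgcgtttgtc

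The marked word lay at bases 63780714 to 63780721 of chromosome 9, with its middle at -22.5 bases from the peak centre. Read on both strands, TTATGTAA occurred in 308 of all 32851 promoter entries of 300 bases, or 0.938%. It occurred in 14 of the 227 entries that any FLAG-HLF peak overlapped, or 6.17%, of which Gm35941 is 1. In those 14 entries the word was within the peak in 13, at a median of 39.5 bases from the centre. The same Gm35941 stretch also held the C/EBP-class word TTGCNNAA, present in 10.8% of all entries and in 30.4% of those under a peak. None of the other 10 words searched was in it, including the palindrome TTACGTAA (0.119% of all entries) and CAGAC, the short core word that SMAD3 and SMAD4 recognise (49.6%). The word match describes the letters under the peak and does not show which protein was bound there.

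No promoter of a pathway gene that could be checked was under a peak. RefSeq entries were found for Tgfbr1 (2 entries), Tgfbr2, Smad3, Smad6 and Ski. Of these 6 entries 0 overlapped a peak, against 227 of all 32851 entries. None held TTACGTAA or TTATGTAA, which were in 0.119% and 0.938% of all entries. At such low shares, 6 entries are too few for a count of 0 to say anything particular about these genes. The Tgfbr2 promoter is shown in part because it lies between the peaks of that gene. It held a C/EBP-class word with its first base at -205 from the start site (chr9:116175546-116175583, minus strand), in capitals below.
Tgfbr2, C/EBP-class word: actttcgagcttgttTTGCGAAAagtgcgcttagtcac

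Of the other entries, the one for Smad6 held both a C/EBP-class word and the SMAD palindrome GTCTAGAC at its start, a word found in 0.213% of all promoters, although Smad6 had no peak within 100 kb. This is a single match among 12 words searched in 6 entries. CAGAC was in 2 of the 6 entries (of Tgfbr1 and Tgfbr2), against 49.6% of all entries. GGCGCC, another SMAD word, was in 2 (of Tgfbr1 and Ski), against 11.9%. No other word searched was in these entries.

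Among the receptors, Tgfbr2 had 2 peaks, Tgfbr3 had 1 and Tgfbr1 had 0. Tgfbr2, the ligand-binding receptor, lies on the minus strand of chromosome 9 from 116087695 to 116175363. One peak (chr9:116178072-116178471) was centred 2.91 kb upstream of its start site, within the noncoding gene Gm40582, 0.336 kb from an end of that gene. The other (chr9:116086677-116087076) was centred 0.819 kb beyond the downstream end of the gene. The peaks thus flanked the gene, 91.4 kb apart, and none lay inside its 87.7 kb. Tgfbr2 was the nearest coding gene to both, and the next coding gene, Gadl1, was 10.7 kb from the downstream peak and 102.1 kb from the upstream one. Within 1 Mb of Tgfbr2 there were no further peaks.

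A peak outside the gene within 3 kb of each end was rare. It was found at 3 of 21887 coding genes (0.0137%), namely Tgfbr2, Irak3, an inhibitor of Toll-like receptor signalling, and Irf2bp2, a corepressor. The limit of 3 kb was taken from the Tgfbr2 distances after they were seen, so this count describes the arrangement and has no test.

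Tgfbr3, which encodes the coreceptor betaglycan, had its single peak (chr5:107016585-107016984) 89.8 kb below its lower end, just inside the distance limit. Here and below, lower and upper ends are named by coordinate, where no strand was at hand. That peak was nearer to another coding gene, Cdc7, a kinase of DNA replication, at 32.3 kb. It lay in no annotated gene. Tgfbr3 is the longest of the 10 genes, with 183.1 kb and a searched window of 383.1 kb, and it held no peak inside. Tgfbr1, the signalling partner of Tgfbr2 (chromosome 4, 47353222 to 47414926), had the most distant closest peak of the 10 genes, 534.1 kb above its upper end, and its closest peak on the other side was 738.4 kb away. The receptor pair therefore differed in this list. Tgfbr2 had a peak within 3 kb of both ends, and Tgfbr1 had none closer than 534.1 kb on either side.

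**Figure D1:**
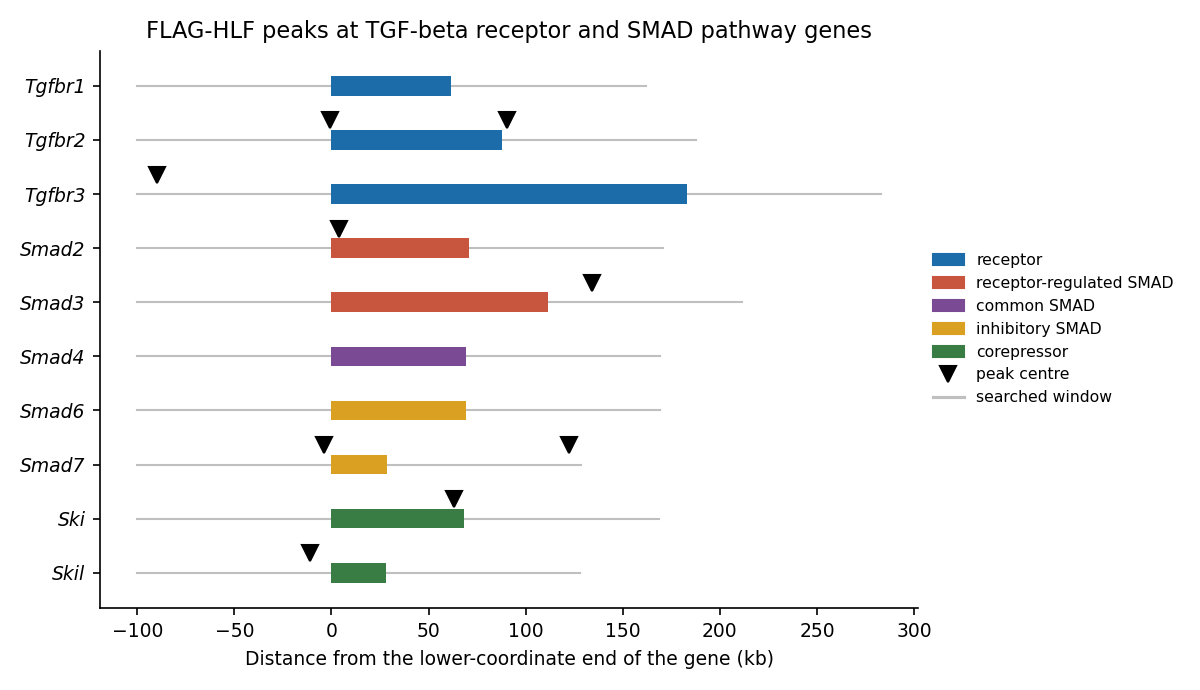
Position of the 9 FLAG-HLF peak centres (triangles) at the 10 genes, drawn to scale in kb from the lower-coordinate end of each gene; bars are the genes coloured by role and grey lines the searched windows of 100 kb on each side. Tgfbr2 has a peak just outside each end, Smad2 and Ski have 1 inside, and the rows of Tgfbr1, Smad4 and Smad6 hold none.

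Both receptor-regulated SMAD genes had 1 peak. Smad2 (chromosome 18, 76241090 to 76311748) had it inside the gene (chr18:76244581-76244980), 3.69 kb from the lower end, or 5.22% of the way along the 70.7 kb gene. The nearest other coding gene end, of Zbtb7c, was 96.2 kb away, and the next peak was 755.3 kb away. Exons and introns could not be told apart in the gene table. Smad3 (chromosome 9, 63646766 to 63757994, minus strand) had none inside, and its peak was the one at Gm35941 described above, 22.7 kb upstream of its start. Smad3 was the nearest coding gene, the next being Aagab at 136.2 kb. By all annotated genes the nearest was Gm35941, at 0.011 kb, so this peak is assigned to Smad3 only if noncoding genes are set aside. Smad4, the partner shared by the TGF-beta and BMP branches (chromosome 18, 73634790 to 73703791), had 0 peaks within 100 kb. Its closest peak lay 168.6 kb above its upper end, and on the lower side there was none for 3568 kb.

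The inhibitory SMAD genes differed in number. Smad7, a feedback inhibitor that TGF-beta itself induces, had 2 peaks and Smad6, the corresponding inhibitor of the BMP branch, had 0. The first Smad7 peak (chr18:75363231-75363630) was centred 3.94 kb outside the lower end of the 28.6 kb gene (chromosome 18, 75367365 to 75395935), inside the noncoding gene Gm20544. Smad7 was its nearest coding gene. The second (chr18:75489322-75489721) was 93.6 kb above the upper end and lay inside another coding gene, Ctif, which encodes a translation initiation factor. Only the first is therefore close to Smad7. Smad6 (chromosome 9, 63953076 to 64022085) had its closest peak 172.3 kb below its lower end, and that was the Smad3 peak at Gm35941. The genes Smad3 and Smad6 are 195.1 kb apart, and their searched windows overlapped by 4.92 kb, in which no peak lay.

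Each corepressor gene had 1 peak. Ski (chromosome 4, 155154075 to 155222535, minus strand) had it inside the gene (chr4:155217091-155217490), 5.25 kb downstream of the start site. The window of Ski was the most crowded, with 6 other coding genes, but the peak was in none of them. The nearest other coding gene end, of Faap20, was 29.6 kb away. Skil (chromosome 3, 31095058 to 31122923) had its peak (chr3:31083970-31084369) 10.9 kb outside its lower end. No annotated gene held that peak. Its nearest coding gene was Skil, then Prkci, a protein kinase C gene, at 31.4 kb. The noncoding gene Gm33694 was closer, at 4.23 kb.

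Of the 9 peaks, 2 were inside a gene of the pathway and 7 outside, and for 7 of the 9 the nearest coding gene end belonged to the pathway. The exceptions were the Tgfbr3 peak (Cdc7) and the far Smad7 peak (Ctif). No peak at these genes was part of a cluster, since the closest pair of peaks was the Tgfbr2 pair. The 9 peaks were at lines 400 to 3128 of the list, 4 in the first 1576 lines and 5 after. What the line order stands for is not stated in the sources used here.

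**Figure D2:**
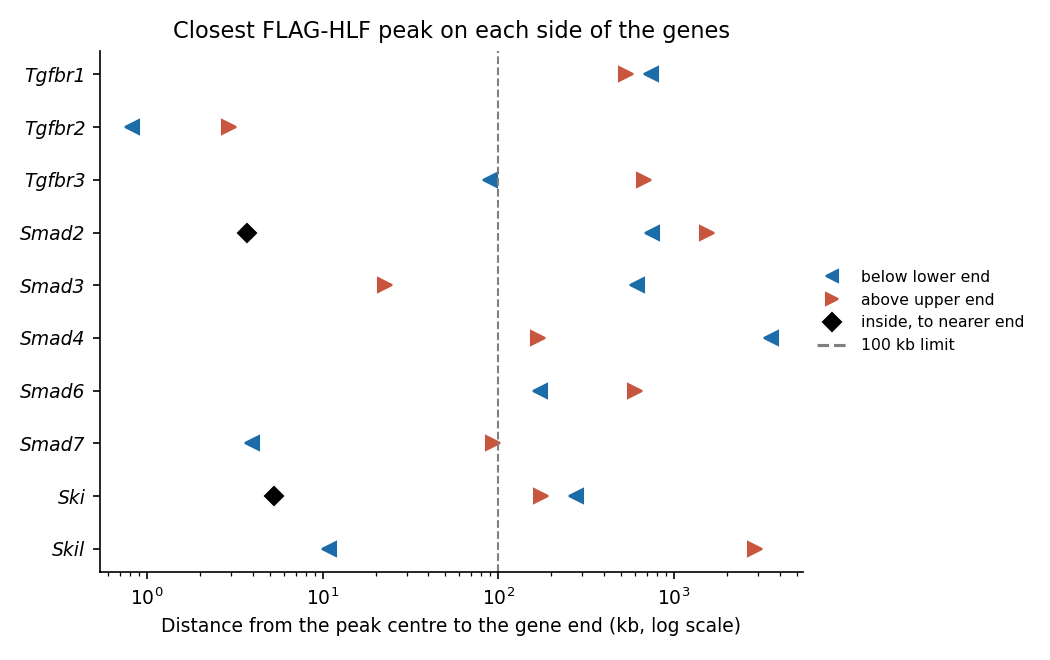
Distance in kb (log scale) from each of the 10 genes to the closest FLAG-HLF peak centre below the lower end (blue) and above the upper end (red), with black diamonds for peaks inside, measured to the nearer end. Tgfbr2 stands at 0.819 and 2.91 kb on its sides, whereas both points of Tgfbr1, Smad4 and Smad6 lie to the right of the dashed 100 kb limit.

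Most coding genes had no peak in the same window, which gives a scale for these counts. With the 100 kb limit 7 of the 10 pathway genes had a peak, against 36.3% of all coding genes, and 2 of the 10 (Tgfbr2 and Smad7) had 2 peaks, against 12.4% with 2 or more. A peak inside the gene was found at 2 of 10 genes, against 6.83% of coding genes. The 10 genes are 27.9 to 183.1 kb long, and a long gene has more room for a peak. Among the 6862 coding genes in this range of lengths, 40.7% had a peak within 100 kb and 11.9% had one inside. The median number of peaks within 100 kb was 1 for the 10 genes and 0 for all coding genes. In the joined windows of the 10 genes, 2.77 Mb, there were 3.25 peaks per Mb, against 1.61 per Mb within 100 kb of any coding gene.

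The share of pathway genes with a peak was above that of coding genes at each limit tried. It was 4 of 10 within 5 kb (coding genes 9.42%) and the same 4 within 10 kb (11.4%), namely Tgfbr2, Smad2, Smad7 and Ski. Skil joined within 20 kb (5 of 10, against 15.1%) and Smad3 within 50 kb (6 of 10, against 24.2%). With 200 kb the count was 9 of 10, against 51.8%, and only Tgfbr1 was left without a peak. Each limit includes the peaks of the narrower ones, so the steps are not separate observations. Coding genes of like length were counted only inside the gene and within 100 kb. The 10 pathway genes were chosen with earlier results of these data known, and 1 gene is 10 percentage points, so the differences are given without a test. Open chromatin and expression of these genes were not measured here, and their part in the counts was not tested.

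**Figure D3:**
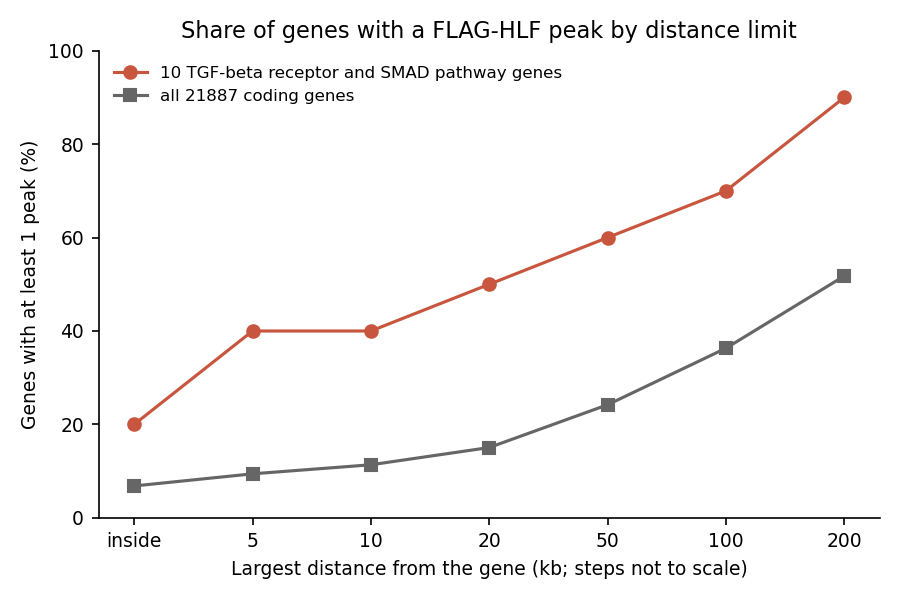
Percentage of genes with at least 1 FLAG-HLF peak inside or within the distance on the x axis (kb, steps not to scale), for the 10 pathway genes (red) and all 21887 coding genes (grey). The red points run from 20% inside the gene to 90% within 200 kb, and the grey points from 6.83% to 51.8%.

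Further genes of the TGF-beta superfamily were searched by the same rule in 6 lists with 71 genes. A peak within 100 kb was found at 39 of them (54.9%) and a peak inside at 9 (12.7%), beside the same 36.3% and 6.83% of coding genes. Those 2 shares are not matched for length. The 71 genes run from 1.16 kb (Id1) to 387.0 kb (Ltbp1), and both Id1 and the 333.3 kb Nedd4l had a peak inside. For coding genes of 27.9 to 183.1 kb the shares were 40.7% and 11.9%. The 39 genes shared 57 distinct peaks, none of which was also counted at the 10 genes above. Of these 39 genes, 27 had a peak that was not inside a coding gene outside the lists.

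Receptor genes of the activin and BMP branches had peaks at 8 of 12 (66.7%, against 36.3% of coding genes). A peak inside was found at 2 (16.7%, against 6.83%). With 12 genes these counts are small, and length was not matched. Acvr1b, the activin type I receptor that also phosphorylates SMAD2 and SMAD3, had 4, of which 2 were inside the gene, 3.37 and 21.6 kb downstream of its start site. The same 4 peaks were within 100 kb of its neighbour Acvrl1, an endothelial type I receptor, but none was inside Acvrl1, and the nearest coding genes of the other two were Ankrd33 and Nr4a1. Acvr1, a BMP type I receptor, had 1 inside, 38.7 kb from its lower end. The other receptor genes with a peak (Acvr1c, Acvr2a, Amhr2, Bmpr1a and Bmpr1b) had it outside, at 25.5 to 98.1 kb. The remaining SMAD genes of the BMP branch had no close peak. Smad5 and Smad9 had 1 each at 91.2 and 73.7 kb, the first of them inside Tgfbi, and Smad1 had 0. With only 3 genes, the count of 2 cannot be set against the 36.3% of coding genes.

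Ligand genes had peaks at 3 of 13 (23.1%, against 36.3% of coding genes), and none was inside (against 6.83%). With 13 genes these counts are too small to be read as a lack of peaks. The ligand genes run from 3.08 kb (Gdf15) to 154.6 kb (Bmp6), and length was not matched. Tgfb1, the main TGF-beta ligand of blood cells, had 1 peak 13.9 kb outside its upper end, but this peak was inside the neighbouring gene Ccdc97, 0.019 kb from its end. Inha, an inhibin subunit, had 2, whose nearest coding genes were Tmem198 and Slc4a3, and Bmp6 had 1, nearest to Txndc5. So each of the 4 ligand-gene peaks was closer to another gene.

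Regulators of SMAD signalling had peaks at 12 of 18 (66.7%, against 36.3% of coding genes), with 4 genes holding them inside (22.2%, against 6.83%). With 18 genes these counts are small, and length was not matched. Nedd4l, a ubiquitin ligase that targets activated SMADs, had 2 inside, 73.2 and 87.9 kb from its lower end. Smurf1, a ubiquitin ligase that acts with the inhibitory SMADs, had 1 inside at 40.9 kb from an end. Map3k7, which encodes the kinase TAK1 of the SMAD-independent branch, had 1 inside at 12.5 kb. Sptbn1, a spectrin that carries SMAD3 and SMAD4, had 1 inside, 2.58 kb downstream of one of its start sites. Rnf111, which encodes Arkadia, a ligase that degrades SMAD7 and SnoN, had 2 outside, both nearer to Sltm.

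Genes of the latent TGF-beta complex and its activators had peaks at 5 of 9 (55.6%, against 36.3% of coding genes), none inside (against 6.83%). With 9 genes these counts are small, and length was not matched. Furin, the protease that cleaves the TGF-beta precursor, had the most of all 71 genes, with 6 between 2.42 and 90.4 kb. Of these, 1 had Furin as its nearest coding gene, at 11.6 kb, and the others were closest to Man2a2, Fes or Blm. Textbook targets had peaks at 9 of 16 (56.25%, against 36.3%), with 3 genes holding them inside (18.75%, against 6.83%). This list is also small and not matched for length. Atf3, a stress-induced bZIP factor, had a peak centred 0.003 kb inside its start (chr1:191183131-191183530), the only promoter entry of the 71 genes that a peak overlapped. Klf10, an early TGF-beta response gene, had 1 inside at 1.92 kb. Id1, a target of BMP signals, had 1 inside at 0.009 kb from its lower end. It had 2 more outside, 2.19 and 4.39 kb beyond its upper end.

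**Figure D4:**
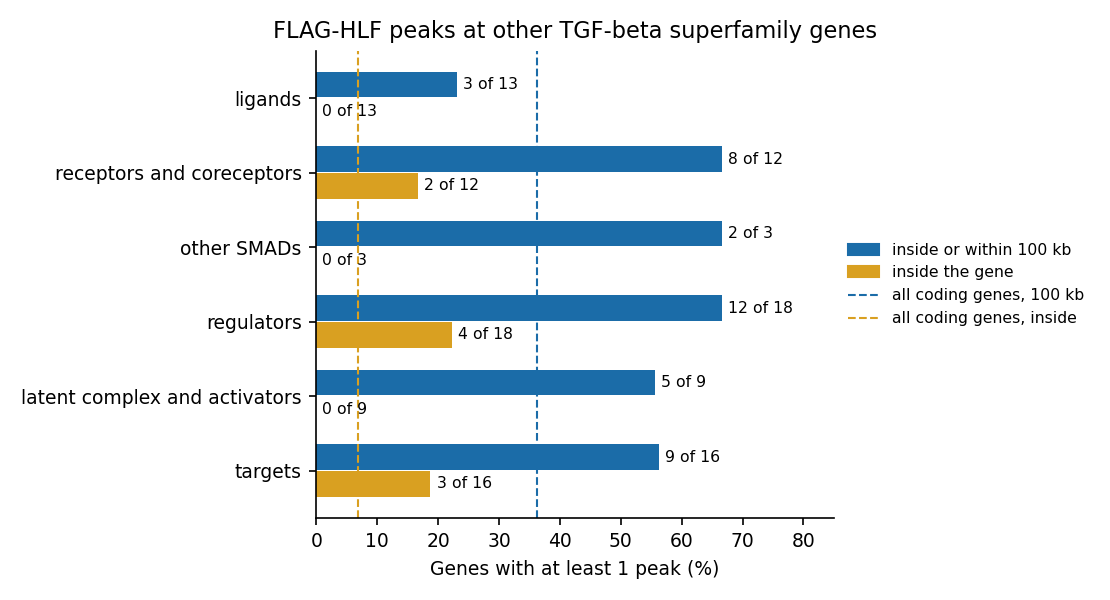
Percentage of genes in 6 lists of the TGF-beta superfamily with a FLAG-HLF peak inside or within 100 kb (blue) or inside the gene (yellow), with counts beside the bars and dashed lines for all coding genes (36.3% and 6.83%). Receptors, regulators and the 3 other SMADs reach 66.7% for the wider window, and ligands 23.1%. Ligands, other SMADs and the latent complex have no peak inside.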

How the data were processed

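The authors deposited 1 peak list, for the FLAG-HLF library, with 3 unlabelled columns that the file itself shows to be chromosome, start and end. Per the submitters' processing notes the tools were Bowtie2, bedtools and MACS2 and the builds mm10 and GRCm38; neither roles nor versions are listed. How peaks were thresholded, how every peak came to be 400 bases wide and whether the GFP library was used are not stated in the sources used here.

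The peak centre was the start plus 200. The gene table was RefSeq's for GRCm38.p6 (49943 genes on chromosomes 1 to 19, X and Y, 21887 of them coding), which held all 10 genes and all 71 others by symbol. Strand and start sites came from RefSeq promoter sequences of the same build (250 bases before to 50 after a start), with entries for 5 of the 10 genes. The 3 peaks on chromosome 18 were not compared with promoters. There were 12 words searched on both strands. These were the PAR bZIP palindrome TTACGTAA and its variant TTATGTAA, TTGCNNAA (C/EBP class), TGACGTCA (CRE), TGANTCA (AP-1), CACGTG (E-box), CAGAC (SMAD core word), GTCTAGAC (SMAD palindrome), GGCGCC (SMAD GC site), CCGGAAG (ETS), TGTGGT (RUNX) and the word of GATA factors, AGATAA. GTCTAGAC does not contain CAGAC, and no other pair of them is nested.

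No test was made, because there is 1 library per arm. All 10 genes are named, and of the other 6 lists every gene with a peak inside and, within each list, the gene with the most peaks, except for 1 list whose gene with the most peaks is not reported here. The genes and lists were chosen with earlier results of these data known. The 5 kb limit, the comparison with genes of like length and the 3 kb rule were added after seeing the data. The counting was tested on simulated peaks. Python 3.11.15, numpy 2.4.6, pandas 2.3.3 and matplotlib 3.10.9 were used.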

Additional observations from a re-analysis of the deposited data

How the results depend on the processing

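Of 43 alternative values for 6 counts, 29 stayed close to the value given in the report (at most 1.5 times higher or lower) and 14 did not. With 10 kb there were 5 peaks at 4 of the 10 pathway genes and a peak at 11 of the 71 other superfamily genes, and the 5 kb limit, chosen after seeing the data, gave the same counts of 5, 4 and 11. The 71 genes gave 14 with 20 kb and 24 with 50 kb. The first 1576 lines alone held 4 peaks at 3 pathway genes, with 1 peak inside 1 gene. When noncoding genes competed, a pathway gene was the nearest gene for 3 peaks, not 7, and by nearest transcription start for 4, where starts were at hand for 5 of the 10 genes and for no peak of chromosome 18. Counting any overlapping base, the whole interval or neighbouring peaks once left the counts as they were. For single genes only other distance limits were tried, and 20 of 30 values were unchanged. A stricter peak threshold was not run, because the list has no score. Depth is unknown, so a gene without a peak cannot be called unbound.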
